A study of Mus musculus with 12 samples.

Results

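The mitochondrial ribosomal protein genes are the nuclear genes for the proteins of the mitochondrial ribosome (mitoribosome). They were taken by their symbol, as every gene named Mrpl or Mrps followed by a number that had at least 1 unique molecular identifier (UMI, a tag that counts an RNA molecule once) in any library. All 78 symbols of that form met this, of 31053 genes listed and 24973 with a UMI. They were followed through the cell classes of the stromal vascular fraction (SVF) of epididymal (eWAT) and inguinal (iWAT) white adipose tissue, beside the 83 genes of the cytosolic ribosome. The SVF is what collagenase leaves of adipose tissue once the floating adipocytes are removed, and it was sequenced cell by cell (scRNA-seq) from about 300 mg of tissue. The mice were males aged 12 weeks in 3 groups: lean C57BL/6 mice given vehicle (WT-Veh), leptin-deficient obese Lepob/Lepob mice given vehicle (ob/ob-Veh), and Lepob/Lepob mice given rosiglitazone (Rosi), an agonist of the nuclear receptor PPARγ, at 30 mg/kg (ob/ob-Rosi). Gavage was given morning and evening for 3 days, and the vehicle was methylcellulose in culture medium. Each group and depot had 2 libraries labelled as biological replicates, 12 in all. Lean mice given Rosi were not analysed here, so the drug was seen only in obese mice, whose Lep mutation is germline and present in every cell.

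The mitoribosome sits in the mitochondrial matrix and translates the few mRNAs of mitochondrial DNA, all of which encode subunits of the respiratory chain and ATP synthase. Its RNAs are mitochondrial, but every protein of it is encoded in the nucleus, translated on cytosolic ribosomes and imported, so building it needs both genomes. PPARγ drives adipocyte differentiation, which brings a large increase in mitochondria, and adipose tissue of obese rodents is known for a lower mitochondrial content.

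By role, 51 members belong to the large subunit, which joins amino acids, and 26 to the small subunit, which reads the mRNA. Of the large subunit members 30 have a bacterial counterpart and 21 are particular to mitochondria. In the small subunit the numbers are 17 and 9. Symbols and places differ in a few cases: the products of Mrps30 and Mrps18a sit in the large subunit, and Mrps36 encodes KGD4, a part of the 2-oxoglutarate dehydrogenase complex and no ribosomal protein. All 78 are protein-coding in GENCODE (GRCm38) and lie on 17 chromosomes. Their transcripts are short, with a median of 1336 bases (418 for Mrpl52 to 7300 for Mrpl17) around a median coding length of 582. Exons of 4 members overlap another listed gene on the same strand (Mrpl53, Mrps24, Mrps6 and Mrps34), so their counts may be affected, and 26 overlap one on the other strand.

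Start sites of 69 members were matched to RefSeq (GRCm38.p6), and 4 are shown by the 250 bases before the start because they carry the range of the results: Mrps22, called in PVM-like cells of both depots, Mrpl58, called in more than 1 class, Mrpl20, called in the most comparisons, and Mrpl10, which went the other way. The windows are chr9:98601680-98601929 on the minus strand for Mrps22, chr11:115403502-115403751 on the plus strand for Mrpl58, chr4:155802628-155802877 on the plus strand for Mrpl20 and chr11:97041332-97041581 on the plus strand for Mrpl10. Capitals mark matches to NRF1 (GCGCATGC), ETS (CCGGAAG), YY1 (AAGATGGCG) or TATA-box (TATAAA) letters on either strand. The capitals that end the Mrpl58 window begin a match that runs past the start.
Mrps22: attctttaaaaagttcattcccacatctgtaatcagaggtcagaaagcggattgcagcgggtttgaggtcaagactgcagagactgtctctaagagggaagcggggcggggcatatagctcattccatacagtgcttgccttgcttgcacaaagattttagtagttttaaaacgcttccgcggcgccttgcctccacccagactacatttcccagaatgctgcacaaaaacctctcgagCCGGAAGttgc
Mrpl58: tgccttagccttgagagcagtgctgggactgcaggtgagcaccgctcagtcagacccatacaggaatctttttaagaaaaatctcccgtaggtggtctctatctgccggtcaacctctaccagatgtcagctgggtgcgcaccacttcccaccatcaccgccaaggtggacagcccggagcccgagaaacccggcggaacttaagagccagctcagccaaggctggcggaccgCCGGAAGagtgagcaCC
Mrpl20: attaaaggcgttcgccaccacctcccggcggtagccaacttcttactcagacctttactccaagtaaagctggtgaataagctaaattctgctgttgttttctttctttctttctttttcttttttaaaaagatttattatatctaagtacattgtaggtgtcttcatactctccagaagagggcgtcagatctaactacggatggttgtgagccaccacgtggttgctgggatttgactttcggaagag
Mrpl10: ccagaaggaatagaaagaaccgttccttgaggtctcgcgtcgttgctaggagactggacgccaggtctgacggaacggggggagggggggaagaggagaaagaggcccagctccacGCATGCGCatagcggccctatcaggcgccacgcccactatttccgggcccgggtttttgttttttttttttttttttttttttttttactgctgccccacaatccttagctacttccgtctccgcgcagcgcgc

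In these windows Mrps22 and Mrpl58 each held 1 ETS match, Mrpl10 held 1 NRF1 match and Mrpl20 held none. Over windows of 300 bases (250 before and 50 after the start), the ETS letters stood in 34.7% of the 75 member promoters, against 8.86% of all 32851 promoters and 36% of the 75 matched to cytosolic ribosomal genes. The NRF1 letters stood in 10.7%, 2.71% and 4% in the same order, and the YY1 letters in 10.7%, 1.4% and 6.67%. TATA letters were rarer in members, at 6.67% against 13.6% of all. Member promoters had 59% G and C and all promoters 53.8%, and ETS and YY1 matches can overlap where they adjoin. A match is a match of letters only.

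The libraries held 20132553 to 92475986 UMIs, and 6472 to 17500 cells each passed the filters. Cells were grouped into classes by marker genes and called by the class with "-like". Adipoq, of mature adipocytes, had 12 to 585 UMIs per library. Lep had 4 to 318, and since the Lep mutation leaves a transcript and SVF lacks adipocytes it does not check the labels: groups are called by them. The iWAT library WT-Veh replicate 1 stood apart: it had a median of 1132 UMIs per cell and 7891 of the 7987 cells of 1 unnamed cluster, with only 135 progenitor-like and 250 preadipocyte-like cells. No library pair shared more than 99 barcodes.

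Levels are given as CPM, the UMIs of a gene per 1000000 UMIs of a class in a library. Reads come from transcript 3′ ends and CPM is not scaled by length, so levels of different members are tag counts and not mRNA numbers per length. On this scale the most abundant members, averaged over classes, were Mrpl33 at 170 CPM, Mrpl52 at 139, Mrpl20 at 112, Mrps24 at 106, Mrpl30 at 103 and Mrpl23 at 102. Mrpl23 encodes a protein at the exit of the peptide tunnel, and Mrps24 a protein of the small subunit. The least abundant were Mrpl53 at 0.518 CPM, Mrpl47 at 6.29, Mrps27 at 7.27 and Mrps22 at 8.77. Mrpl53, whose exons overlap another gene on the same strand, was too low to be fitted in any class, and the other 77 were fitted in at least 1.

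The levels of all members were summed for each class. In eWAT the sum was highest in proliferating PLAM-like macrophages, at 5739 ± 568 CPM (SD, n = 4, since the ob/ob-Veh libraries had 14 and 10 such cells), then 4304 ± 573 in mesothelial-like cells and 4135 ± 679 in lipid-associated LAM-like macrophages (n = 6 each). Among the classes held by at least 4 libraries it was lowest in perivascular PVM-like macrophages, at 3175 ± 682. Adipose progenitor-like cells stood at 3287 ± 527 and preadipocyte-like cells at 3601 ± 482. In iWAT the extremes were again PLAM-like cells, at 4515 ± 1569 (n = 5), and PVM-like cells, at 2589 ± 801, with progenitor-like cells at 2781 ± 706 and preadipocyte-like cells at 2935 ± 860. Classes short of ob/ob-Veh cells lack the libraries with the lowest sums, so the order was also taken over the WT-Veh and ob/ob-Rosi libraries alone (n = 4 each). In eWAT PLAM-like cells were again highest, at 5739 ± 568 CPM, with mesothelial-like cells at 4654 ± 210, LAM-like cells at 4548 ± 283 and PVM-like cells lowest at 3546 ± 391. In iWAT they were at 5191 ± 490, followed by LAM-like cells at 4137 ± 896, and neutrophil-like cells, at 2910 ± 478, were below PVM-like cells, at 3004 ± 608. Over these libraries PLAM-like cells of eWAT stood clear of their neighbour by more than the SDs, and in iWAT the SDs of all neighbours in the order overlapped.

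Some members differed between classes by more than the sum. Mrpl48, of the large subunit, was at 127 ± 27.7 CPM in eWAT mesothelial-like cells and at 28.7 ± 17.1 in BC-like cells (n = 6 each). PLAM-like cells held the highest level of the other members with the largest spread between eWAT classes. Mrpl51 was at 183 ± 14.5 CPM there (n = 4) against 45.1 ± 11.1 in the non-perivascular NPVM-like macrophages, and Mrpl18, whose product is known to bind 5S rRNA in bacteria, at 165 ± 20.3 against 48.9 ± 16.4 in PVM-like cells. Highest-to-lowest ratios were 3.46 for Mrps6, 3.38 for Mrpl18, 3.21 for Mrps22 and 3.18 for Mrps31, and the lowest was 1.5 for Mrps9. The PLAM-like values hold no ob/ob-Veh library. In iWAT, Mrpl33 stood out in neutrophil-like cells, at 368 and 450 CPM in the WT-Veh libraries and 597 and 532 in the ob/ob-Rosi libraries, against 84.2 ± 55.9 in BC-like cells. The lowest levels of Mrps9, Mrpl44, Mrpl50, Mrps11 and Mrps6 were also in neutrophil-like cells, but these rest on 0 or 1 UMI per library, and nothing is read from them.

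The ob/ob effect is ob/ob-Veh against WT-Veh and the Rosi effect is ob/ob-Rosi against ob/ob-Veh, so both use the ob/ob-Veh libraries and a high or low value there moves both in opposite directions. The summed member level was lower in both ob/ob-Veh libraries than in both WT-Veh libraries in 10 of 10 eWAT classes and 6 of 6 iWAT classes. The ratio of group means was 0.670 to 0.892 in eWAT (median 0.765) and 0.549 to 0.772 in iWAT (median 0.631). After Rosi it was higher in both libraries than in both ob/ob-Veh libraries in 10 of 10 and 6 of 6 classes, 1.23 to 1.51 times in eWAT (median 1.33) and 1.57 to 2.06 times in iWAT (median 1.78). ob/ob-Rosi and WT-Veh overlapped in all 11 eWAT and 10 iWAT classes that both held. These are shares of a cell's UMIs: fewer member mRNAs and more of other mRNAs cannot be told apart.

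**Figure D1:**
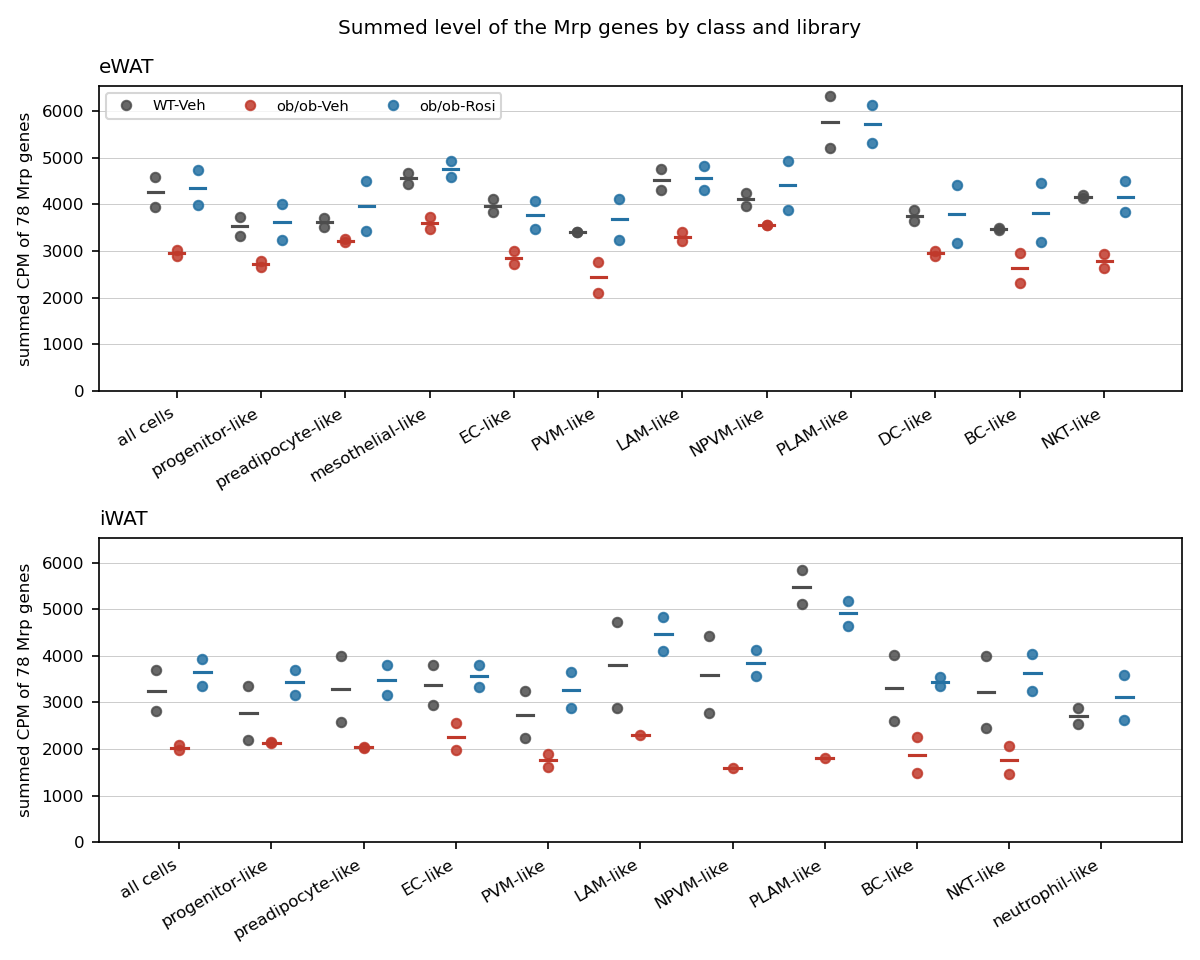
Summed CPM of the 78 mitochondrial ribosomal protein genes (vertical axis) in all cells and in each cell class (horizontal axis), eWAT and iWAT, by group. Each point is 1 library and the bar is the group mean; in all 16 classes held by every group the ob/ob-Veh points lie below the WT-Veh points and below the ob/ob-Rosi points, by little in iWAT progenitor-like cells, where WT-Veh replicate 1 was at 2189 CPM and ob/ob-Veh at 2126 and 2151.

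Fitted gene by gene, 1031 of 1116 member-by-class changes were lower in ob/ob-Veh and 1036 of 1116 were higher after Rosi. Class medians of the ob/ob effect ran from -0.82 to -0.27 (log2) in eWAT and from -1.16 to -0.59 in iWAT, where the median over all genes ran from -0.08 to 0.04 and from -0.18 to 0.01. Medians of the Rosi effect ran from 0.37 to 0.78 in eWAT and from 0.79 to 1.38 in iWAT, with all genes from -0.05 to 0.07 and from -0.06 to 0.09. With 1 library left out the eWAT medians of the Rosi effect ran from 0.11, in BC-like and DC-like cells, to 0.91, in PVM-like cells. Few members passed the test (an adjusted p of at most 0.05 by edgeR and a change of at least 1.1-fold). They were 17 falls in ob/ob-Veh, of 12 members (all genes 1.36% lower, 2115 of 154988), and 36 rises after Rosi, of 29 members (all genes 1.62% higher, 2516 of 154988), with no member called in the other direction. The share of falls among the 1116 was thus close to that of all genes. Mrpl18 was called lower in 3 comparisons, and Mrpl20 and Mrpl34 higher in 3, the most for any member. No permutation of 2 against 2 libraries can give a p below 0.33, so every p rests on edgeR's model of the spread. Counts of members at an unadjusted p under 0.05 within a depot are given without the share of all genes. Nothing is read from them.

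**Figure D2:**
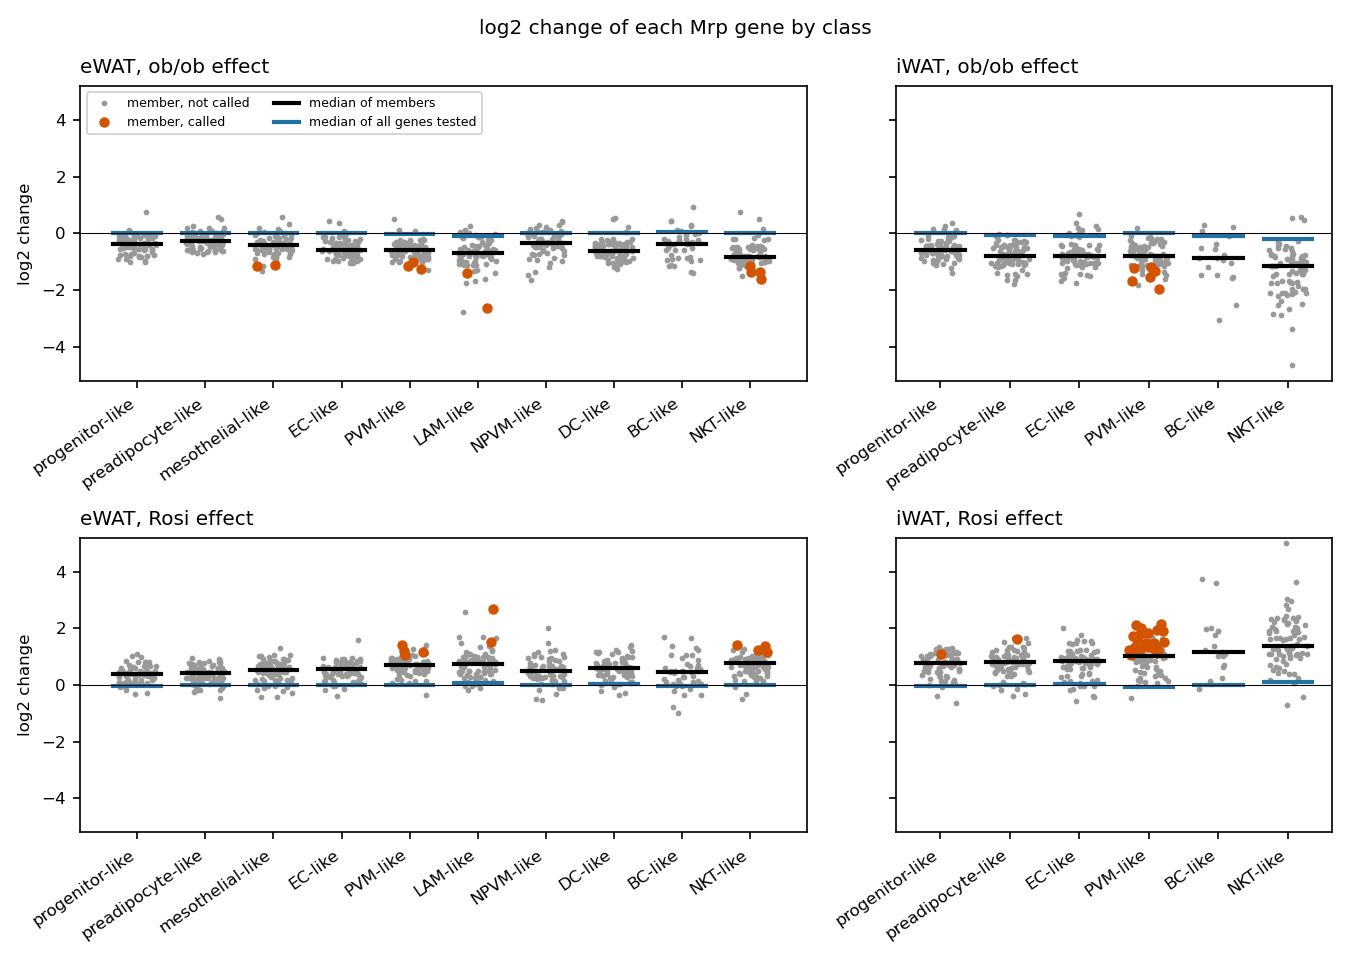
log2 change of each member (points) in each cell class, ob/ob effect and Rosi effect, in eWAT and iWAT. Orange points passed the test, black bars are the member medians and blue bars the medians of all genes tested; the member medians lie below the all-gene medians for the ob/ob effect and above them for the Rosi effect in every class shown.

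Progenitor-like cells of eWAT, the Pi16- and Dpp4-expressing stem-like cells of the depot, had a summed member level of 3721 and 3327 CPM under WT-Veh, 2783 and 2648 under ob/ob-Veh, and 3227 and 4017 under ob/ob-Rosi. The 2 libraries of each group stood on the same side. No member of 69 fitted was called lower in ob/ob-Veh (all genes 1.94%), nor by DESeq2, and 13 had an unadjusted p under 0.05. Of these 69, 66 were lower by the fit and 41 lay lower without overlap of the groups (all genes 24.1%). The median was -0.37. After Rosi none of 69 was called higher by edgeR (all genes 1.26%) or DESeq2, 11 had an unadjusted p under 0.05, and 34 lay higher without overlap (all genes 20.2%), with a median of 0.37. With the replicate number as a block, 3 members were called lower (284 of 8247 genes) and 2 higher after Rosi (197 of 8247).

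The smallest p of the ob/ob effect in these cells belonged to Mrpl34 and Mrpl20. Mrpl34, one of the smallest proteins of the large subunit and kept since bacteria (chr8:71464959-71465747), was at 49.9 and 56.3 CPM under WT-Veh, 29.1 and 25.8 under ob/ob-Veh and 38.4 and 36.8 under ob/ob-Rosi, a fall in ob/ob-Veh of log2 -0.96 ± 0.29 (SE, adjusted p = 0.0806) that did not pass. Mrpl20, of the large subunit (chr4:155802878-155809975), was at 141 and 113, 72.0 and 64.1, and 121 and 147 CPM in the same order. Its changes were -0.89 ± 0.28 (adjusted p = 0.0944) and, after Rosi, 0.98 ± 0.28 (adjusted p = 0.0911). Neither passed, though the ob/ob-Veh libraries were the lowest for both genes, and with the block both falls did (adjusted p = 0.0286 for Mrpl34 and 0.0299 for Mrpl20), as did the rise of Mrpl20 (adjusted p = 0.0262). The third fall with the block was Mrps34 (adjusted p = 0.0497), whose exons overlap another gene. Mrps14, of the small subunit (chr1:160195215-160202170), was at 88.4 and 51.1, 63.0 and 53.2, and 104 and 132 CPM, with a Rosi effect of 1.01 ± 0.31 (adjusted p = 0.119, and 0.0265 with the block). Its WT-Veh and ob/ob-Veh libraries overlapped.

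In eWAT preadipocyte-like cells, the committed cells next to adipocytes, the sum was 3715 and 3510 CPM under WT-Veh, 3252 and 3189 under ob/ob-Veh and 3432 and 4506 under ob/ob-Rosi. This was the smallest ob/ob effect of any class, with a median of -0.27 (-0.35 to -0.16 with 1 library left out). None of 77 members was called lower in ob/ob-Veh by edgeR (all genes 4.25%) or DESeq2. An unadjusted p under 0.05 was held by 5, given without the share of all genes, and nothing is read from it. Of the 77, 64 were lower and 35 lower without overlap (all genes 23.6%). After Rosi none was called higher by edgeR (all genes 4.53%), 2 of 78 were by DESeq2 (719 of 19906 genes), 15 had an unadjusted p under 0.05, and 37 lay higher without overlap (all genes 20.9%), with a median of 0.41. Without ob/ob-Rosi replicate 1, 22 members were called higher (1236 of 13270 genes) and the median was 0.64, and without replicate 2 none was called and the median was 0.14. With the replicate block, 4 members were called higher after Rosi (986 of 12748 genes), Mrpl18, Mrpl22, Mrpl28 and Mrpl34, with adjusted p of 0.0359 to 0.0486.

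Mrpl34 was at 49.9 and 55.4 CPM under WT-Veh, 33.6 and 34.3 under ob/ob-Veh and 54.8 and 51.8 under ob/ob-Rosi in these preadipocyte-like cells. Its changes were -0.72 ± 0.23 (adjusted p = 0.0908) and 0.73 ± 0.23 (adjusted p = 0.0829). Mrpl18 (chr17:12911349-12916345) was at 63.2 and 64.9, 44.7 and 42.0, and 63.1 and 80.6 CPM. The ob/ob-Veh libraries were the lowest of all 6 for both genes, and no group overlapped them. Changes of Mrpl18 were -0.65 ± 0.25 (adjusted p = 0.162) and 0.81 ± 0.25 (adjusted p = 0.0796). Mrpl28, of the large subunit (chr17:26123500-26126613), was at 53.4 and 57.3, 37.7 and 39.6, and 52.8 and 78.3 CPM, with a Rosi effect of 0.85 ± 0.26 (adjusted p = 0.0816).

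The clusters that make up these eWAT classes differed between groups, and so did RNA of other kinds in them. Most ob/ob-Veh progenitor-like and preadipocyte-like cells lay in clusters of their own, apart from those of WT-Veh and ob/ob-Rosi. The summed level of the 8 LAM markers in preadipocyte-like cells was 2574 and 2547 CPM under WT-Veh, 626 and 769.4 under ob/ob-Veh and 2492 and 2832 under ob/ob-Rosi, and it moved in the same way in progenitor-like cells. All 8 LAM markers had UMIs in every library of both classes, and without overlap of the groups 7 of them in progenitor-like and 8 in preadipocyte-like cells lay lower in ob/ob-Veh, and all 8 higher after Rosi. The 8 markers of proliferating PLAM-like cells, at 125.8 and 92.28, 28.36 and 32.83, and 120.1 and 142.4 CPM in preadipocyte-like cells, all moved in that same way without overlap. The 7 mesothelial markers were all higher in ob/ob-Veh and lower after Rosi there, at 49.91 and 47.36, 143.9 and 152.6, and 55.59 and 36.28 CPM. The class's own 11 preadipocyte markers summed to 17250 and 17910, 7154 and 8352, and 13230 and 13520 CPM, with 9 lower in ob/ob-Veh and 7 higher after Rosi without overlap. The summed level of dissociation response genes, which cells switch on during digestion, was 5624 and 6608, 13980 and 11170, and 7466 and 3064 CPM in progenitor-like cells. The part of these in the member changes was not tested.

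Progenitor-like cells of iWAT had a summed member level of 2189 and 3355 CPM under WT-Veh, 2126 and 2151 under ob/ob-Veh and 3169 and 3696 under ob/ob-Rosi. WT-Veh replicate 1 thus lay next to the ob/ob-Veh libraries and replicate 2 with the ob/ob-Rosi libraries. None of 77 members was called lower by edgeR (all genes 0.597%) or DESeq2, 18 had an unadjusted p under 0.05, 72 were lower, and 28 lay lower without overlap (all genes 16.5%), with a median of -0.59. The call depended on the WT-Veh libraries: without replicate 1, 16 members were called lower (738 of 13168 genes) and the median was -0.76, and without replicate 2 none was called and the median turned to 0.03. The 2 smallest p belonged to Mrps18b and Mrpl55. Mrps18b, of the small subunit (chr17:35910379-35916389), was at 19.7 and 21.9 CPM under WT-Veh, 9.21 and 8.11 under ob/ob-Veh and 13.4 and 23.3 under ob/ob-Rosi. The ob/ob-Veh libraries were the lowest, with a change of -1.40 ± 0.35 (adjusted p = 0.102). Mrpl55, of the large subunit, was at 16.9 and 26.5, 12.7 and 13.2, and 21.9 and 28.6 CPM, with a change of -0.98 ± 0.32 (adjusted p = 0.195).

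After Rosi, 1 member of 77, Mrpl20, was called higher in iWAT progenitor-like cells (all genes 1.57%). It was at 73.2 and 81.1 CPM under WT-Veh, 52.5 and 57.1 under ob/ob-Veh and 108 and 103 under ob/ob-Rosi. The ob/ob-Rosi libraries were above all others, with a rise of 1.09 ± 0.24 (adjusted p = 0.0459), while the ob/ob effect was -0.62 ± 0.24 (adjusted p = 0.259). The call was lost without either ob/ob-Veh library and without ob/ob-Rosi replicate 2, and DESeq2 called 8 of 78 (512 of 19300 genes). With it, 44 members had an unadjusted p under 0.05, and 60 of 77 lay higher without overlap (all genes 23.4%), with a median of 0.79.

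In iWAT preadipocyte-like cells the sum was 2572 and 3997 CPM under WT-Veh, 2020 and 2051 under ob/ob-Veh and 3158 and 3810 under ob/ob-Rosi. All 77 members fitted were lower in ob/ob-Veh, 55 of them without overlap (all genes 22.8%), with a median of -0.80. None was called by edgeR (all genes 0.4%), 9 of 78 were by DESeq2 (349 of 18885 genes), and 39 had an unadjusted p under 0.05. Without WT-Veh replicate 1, 32 members were called lower (723 of 12510 genes) and the median was -1.0, and without replicate 2 none was called and the median was -0.31. Mrps18b was at 24.9 and 33.2 CPM under WT-Veh, 11.4 and 8.24 under ob/ob-Veh and 18.7 and 22.7 under ob/ob-Rosi, a change of -1.65 ± 0.34 (adjusted p = 0.0615). Mrps5, which lines the entry of the mRNA into the small subunit in bacteria (chr2:127587222-127606829), was at 35.3 and 43.3, 12.3 and 17.1, and 32.0 and 48.1 CPM, a change of -1.47 ± 0.31 (adjusted p = 0.0637). For both the ob/ob-Veh libraries lay below all the others.

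The member called higher after Rosi in these preadipocyte-like cells was Mrpl54 (1 of 77, all genes 0.63%), of the large subunit and particular to mitochondria (chr10:81264713-81266934). It was at 48.9 and 72.4 CPM under WT-Veh, 28.3 and 20.6 under ob/ob-Veh and 73.6 and 70.0 under ob/ob-Rosi. The rise was 1.62 ± 0.31 (adjusted p = 0.0447) and the ob/ob effect -1.38 ± 0.32 (adjusted p = 0.0746). The call was lost without any 1 of the 4 ob/ob libraries. Mrpl20 was close to it, at 101 and 135, 45.6 and 61.5, and 118 and 125 CPM, with changes of -1.20 ± 0.28 (adjusted p = 0.0753) and 1.25 ± 0.27 (adjusted p = 0.0575). In all, 60 members lay higher without overlap (all genes 26.1%), 41 had an unadjusted p under 0.05 and the median was 0.82. DESeq2 called 12 of 78 (433 of 18885 genes).

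**Figure D3:**
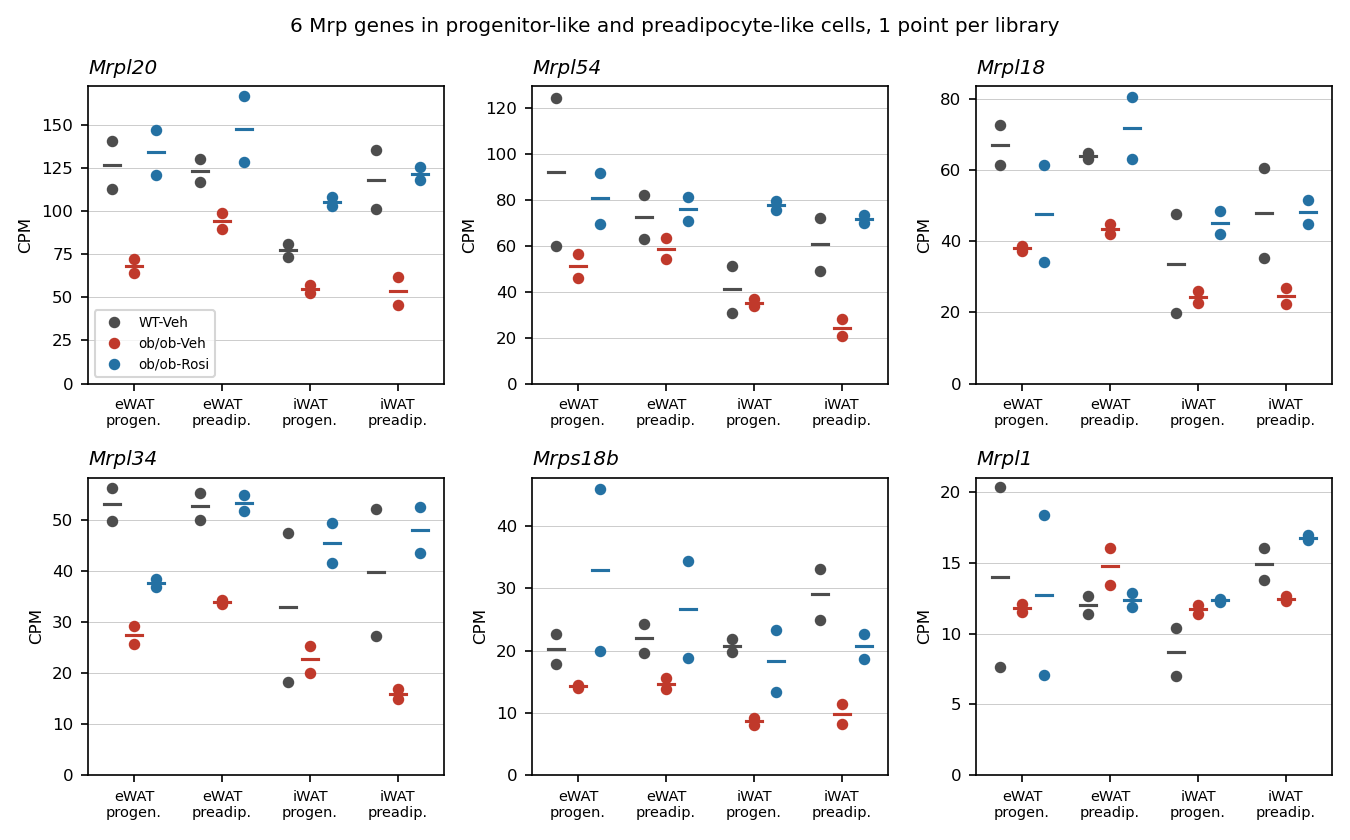
CPM of Mrpl20, Mrpl54, Mrpl18, Mrpl34, Mrps18b and Mrpl1 (one panel each, vertical axis) in progenitor-like and preadipocyte-like cells of eWAT and iWAT, by group. Each point is 1 library; for Mrpl20 the ob/ob-Veh points are the lowest in all 4 sets, while Mrpl1 has no such order in eWAT preadipocyte-like cells.

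Other RNA moved with these iWAT results as well. Summed over the 8 PVM markers, the level in preadipocyte-like cells was 430.9 and 338.2 CPM under WT-Veh, 2617 and 1161 under ob/ob-Veh and 340.5 and 239.6 under ob/ob-Rosi, and in progenitor-like cells 184.4 and 96.69, 645.7 and 566, and 155.2 and 140.3. All 8 PVM markers had UMIs in every library of both classes, and in both 7 lay higher in ob/ob-Veh and 7 lower after Rosi without overlap. The 11 preadipocyte markers summed to 29010 and 32210, 7834 and 12230, and 16130 and 16630 CPM in preadipocyte-like cells. The 10 progenitor markers summed to 1366 and 1065, 2624 and 2549, and 1595 and 1437 CPM in the same cells. Of these, 9 lay higher in ob/ob-Veh and all 10 lower after Rosi without overlap. Here too ob/ob-Veh cells lay mostly in clusters of their own. A progenitor-like cluster with the PVM markers Mrc1 and F13a1 among its leading genes held 1735 of 2756 and 1821 of 2580 cells of the ob/ob-Veh libraries, and a preadipocyte-like cluster with Mrc1 and Gas6 held 406 of 467 and 876 of 1005. With these clusters left out, an alternative chosen after seeing the data, the median ob/ob effect of the members was -0.37 in progenitor-like and -0.61 in preadipocyte-like cells and the median Rosi effect 0.54 and 0.64, and neither Mrpl20 nor Mrpl54 was called.

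Perivascular macrophages gave the most calls. Their ob/ob-Veh cells too sat apart: 1 iWAT cluster held 2758 and 2042 PVM-like cells of the ob/ob-Veh libraries and 2 to 127 of each other library, and 1 eWAT cluster 1790 and 1798 against 9 to 52. The part of this in the calls was not tested. In iWAT PVM-like cells 6 of 77 members were called lower in ob/ob-Veh (all genes 1.74%) and 24 higher after Rosi (all genes 5.24%). Mrps22 (chr9:98588730-98601660), of the small subunit and particular to mitochondria, was at 9.12 and 8.27 CPM under WT-Veh, 2.20 and 2.77 under ob/ob-Veh and 9.24 and 10.1 under ob/ob-Rosi. It fell by 1.97 ± 0.35 on the log2 scale (adjusted p = 0.0213) and rose by 2.14 ± 0.34 (adjusted p = 0.0189). The ob/ob-Veh libraries lay below all the others. Mrpl54 was at 42.5 and 52.9, 15.7 and 21.4, and 54.9 and 70.7 CPM, with changes of -1.54 ± 0.29 (adjusted p = 0.0248) and 1.94 ± 0.29 (adjusted p = 0.0164). Mrps14 and Mrpl21, a large subunit protein with a bacterial counterpart, were called in both directions, as were Mrpl20 and Mrpl18. For Mrpl20 the levels were 76.6 and 88.1, 31.3 and 48.2, and 93.0 and 101 CPM, with changes of -1.23 ± 0.27 (adjusted p = 0.0417) and 1.47 ± 0.27 (adjusted p = 0.0237).

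The other rises in iWAT PVM-like cells ran from 1.05 for Mrpl15 upward and included both subunits: Mrpl11, at the base of the stalk that recruits elongation factors, Mrpl23, Mrpl27, Mrpl30, Mrpl34, Mrpl40, Mrpl46, Mrpl52, Mrpl55, Mrpl57 and Mrpl58 of the large subunit, and Mrps5, Mrps16, Mrps18c, Mrps21, Mrps24 and Mrps33 of the small. Mrps24 rose by 2.12 ± 0.52 (adjusted p = 0.0432) from 19.4 and 37.8 CPM to 77.0 and 140, but its exons overlap Urgcp on the same strand. Without WT-Veh replicate 1, 39 members were called lower (1137 of 13041 genes), and without replicate 2 only 1 (164 of 12323).

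In eWAT PVM-like cells 3 members were called lower (all genes 1.72%) and 4 higher after Rosi (all genes 1.58%). Mrpl20 was at 99.2 and 108 CPM under WT-Veh, 47.6 and 64.3 under ob/ob-Veh and 106 and 126 under ob/ob-Rosi, with changes of -1.0 ± 0.23 (adjusted p = 0.0471) and 1.18 ± 0.23 (adjusted p = 0.0346). Mrps22 changed in both directions too, at 13.2 and 12.3, 5.18 and 6.43, and 15.1 and 13.2 CPM, by -1.24 ± 0.28 (adjusted p = 0.0439) and 1.42 ± 0.29 (adjusted p = 0.0367). Both genes fell and rose in PVM-like cells of either depot. The third fall was Mrpl18, at 62.1 and 56.9 CPM under WT-Veh and 23.5 and 35.3 under ob/ob-Veh (-1.13 ± 0.26, adjusted p = 0.046), and the other rises were Mrpl34 and Mrps11, a small subunit protein with a bacterial counterpart. With the replicate block 25 members fell (851 of 11212 genes) and 27 rose (783). The 3 falls lost their call with either WT-Veh library left out, and the 4 rises without ob/ob-Rosi replicate 2. All were lost with either ob/ob-Veh library left out. With 1 library left out the class medians ran from -0.75 to -0.45 for the ob/ob effect and from 0.52 to 0.91 for the Rosi effect.

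LAM-like cells of eWAT, lipid-laden macrophages, gave 2 falls (all genes 0.793%) and 2 rises (all genes 0.51%), of the same genes. Mrps18b was at 29.3 and 32.1 CPM under WT-Veh, 3.69 and 6.74 under ob/ob-Veh and 23.7 and 38.9 under ob/ob-Rosi, with changes of -2.63 ± 0.56 (adjusted p = 0.028) and 2.68 ± 0.55 (adjusted p = 0.0312). Mrpl43, of the large subunit, was at 82.0 and 72.6, 25.8 and 38.8, and 78.8 and 85.5 CPM, with changes of -1.40 ± 0.33 (adjusted p = 0.0385) and 1.5 ± 0.32 (adjusted p = 0.0364). The ob/ob-Veh values rest on 69 and 98 cells, where WT-Veh had 5108 and 1759. From so few cells, the Mrps18b levels of 3.69 and 6.74 CPM stand for few UMIs. The class sums 3 clusters, and 1 of them, led by Stab1, Ms4a7, Adgre1 and Mrc1 with no LAM marker among its 10 leading genes, held 46 and 40 of these ob/ob-Veh cells, 2120 and 471 cells of WT-Veh and 1120 and 972 of ob/ob-Rosi. With it left out, an alternative chosen after seeing the data, 1 member fell (92 of 11977 genes) and 2 rose (67), with medians of -0.57 and 0.63, against -0.69 and 0.74 with it. With the replicate block 10 members fell (483 of 12352 genes) and 15 rose (471). All calls in the class were lost with either ob/ob-Veh library left out.

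In eWAT NKT-like lymphocytes 4 members were called lower (all genes 1.92%) and 4 higher (all genes 2%). The falls were Mrpl27, Mrpl40, Mrpl18 and Mrpl58, and the rises Mrpl17, Mrpl28, Mrpl34 and Mrpl58. Mrpl58 encodes ICT1, a peptidyl-tRNA hydrolase that frees stalled mitoribosomes (chr11:115403752-115412674), and was at 50.7 and 82.9 CPM under WT-Veh, 27.7 and 33.2 under ob/ob-Veh and 48.7 and 86.8 under ob/ob-Rosi, with changes of -1.35 ± 0.35 (adjusted p = 0.039) and 1.38 ± 0.36 (adjusted p = 0.0406). Mesothelial-like cells, the lining of the depot, gave 2 falls of 73 (all genes 2.53%). Mrpl58 was there at 75.6 and 90.1 CPM under WT-Veh and 39.1 and 39.9 under ob/ob-Veh (-1.14 ± 0.25, adjusted p = 0.0372), and Mrps26, of the small subunit, at 75.6 and 88.2 and at 38.1 and 42.5 (-1.10 ± 0.24, adjusted p = 0.0372). The mesothelial-like falls lost their call with any of the WT-Veh and ob/ob-Veh libraries left out. In NKT-like cells all calls were lost with either ob/ob-Veh library left out. The NKT-like falls were also lost without WT-Veh replicate 2, and the rises without ob/ob-Rosi replicate 2. With the replicate block 12 members fell (397 of 10212 genes) and 6 rose (330) in NKT-like cells, and 6 fell (486 of 7558) and 6 rose (347) in mesothelial-like cells. Endothelial EC-like cells of eWAT, with no call by edgeR over all 6 libraries without the block, had 17 falls (993 of 11022) and 19 rises (894) with it, and NPVM-like cells 1 rise, of Mrpl2 (78 of 6059). In EC-like cells 11 members also rose without ob/ob-Rosi replicate 1 (442 of 11824 genes), and 7 fell and 7 rose with no filter on low counts (684 and 608 of 17956).

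Added over the 8 eWAT classes other than progenitor-like and preadipocyte-like cells, 11 falls and 10 rises were called (all genes 1.46% lower and 1.19% higher), and over the 4 such iWAT classes 6 and 24 (all genes 0.66% and 1.85%). All the iWAT calls were in PVM-like cells. These counts moved widely with 1 library, and each became 0 without either ob/ob-Veh library. The 11 eWAT falls became 2 (0.494% of all genes) and 4 (0.989%) without WT-Veh replicates 1 and 2, and the 10 eWAT rises 105 (4.04%) and 2 (0.498%) without ob/ob-Rosi replicates 1 and 2. With the replicate block there were 70 eWAT falls (4.73% of all genes) and 74 rises (4.18%). In iWAT PVM-like cells the median ob/ob effect was -1.11 without WT-Veh replicate 1 and -0.51 without replicate 2. All 24 iWAT rises lost their call without ob/ob-Rosi replicate 2. The median Rosi effect in PVM-like cells was then 0.81, against 1.26 without replicate 1. The direction of the class medians of both effects did not depend on a library in these classes.

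No member was called between ob/ob-Rosi and WT-Veh. None of 789 member-by-class tests in eWAT (all genes 0.0167%) and none of 600 in iWAT (all genes 0.0136%) was called by edgeR or DESeq2, and 8 and 7 had an unadjusted p under 0.05. Class medians ran from -0.03 to 0.18 in eWAT and from -0.18 to 0.42 in iWAT. With a library left out these medians took either sign in most classes, from -0.55 to 0.28 in eWAT DC-like and from -0.15 to 0.60 in iWAT NKT-like cells. Without iWAT WT-Veh replicate 2, 3 were called higher, 2 of 77 in LAM-like cells (67 of 11035 genes) and 1 of 75 in NKT-like cells (342 of 10315). Few genes of any kind were called in this comparison.

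Not all members shared the direction. The fitted change of Mrpl10, a protein at the base of the stalk, was above 0 for the ob/ob effect in 10 of its 14 comparisons and below 0 for the Rosi effect in 12 of 14. For Mrps2, of the small subunit, the counts were 6 of 10 and 7 of 10. In eWAT preadipocyte-like cells Mrpl10 was at 15.6 and 14.7 CPM under WT-Veh, 20.5 and 26.0 under ob/ob-Veh and 16.3 and 22.1 under ob/ob-Rosi (ob/ob effect 0.52 ± 0.27, adjusted p = 0.307). In iWAT progenitor-like cells it was at 11.3 and 18.6, 22.6 and 21.0, and 11.7 and 13.3 CPM (Rosi effect -0.65 ± 0.30, adjusted p = 0.226). No change of Mrpl10 or Mrps2 passed the test, though in both sets the ob/ob-Veh libraries lay above the WT-Veh libraries. Mrps2 was at 5.63 and 8.28, 11.0 and 11.2, and 6.76 and 8.57 CPM in eWAT preadipocyte-like cells (ob/ob effect 0.59 ± 0.32, adjusted p = 0.324). Mrpl33, the most abundant member, hardly moved there, at 176 and 112, 164 and 142, and 177 and 112 CPM.

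Members whose place differs from their symbol were followed singly. Mrps36 was at 45.9 and 36.4, 47.1 and 43.3, and 47.8 and 49.6 CPM in eWAT preadipocyte-like cells, with the groups overlapping, and at 26.5 and 41.0, 24.1 and 20.3, and 36.8 and 35.9 in iWAT preadipocyte-like cells (ob/ob effect -0.69 ± 0.31, adjusted p = 0.268). Mrps18a was at 32.9 and 83.7, 26.0 and 25, and 51.8 and 73.5 CPM there (-1.28 ± 0.41, adjusted p = 0.147). Mrps30 was at 20.1 and 24.3, 14.1 and 18.1, and 16.2 and 25.2 (-0.53).

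Median changes had the same sign in both subunits, with or without a bacterial counterpart. In iWAT preadipocyte-like cells the median ob/ob effect was -0.82 for large subunit members with a bacterial counterpart, -0.63 for those particular to mitochondria, and -0.91 and -0.61 for those of the small subunit, of which none was called. Other mitochondrial translation genes differed by list. There the 11 translation factors tested (such as the initiation and elongation factors of the mitochondrion) had a median ob/ob effect of 0.05 and Rosi effect of -0.02, and the 16 mitochondrial tRNA synthetases 0.23 and -0.57, with none called. The 20 mitoribosome assembly factors stood between, at -0.40 (1 called lower) and 0.22, and the 5 mitoribosomal proteins with other symbols (Dap3, Ptcd3, Chchd1, Aurkaip1 and Gadd45gip1) at -0.29 and 0.23.

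Nuclear genes of the respiratory chain, whose products meet those of mitochondrial DNA, stood beside the members in iWAT preadipocyte-like cells: 79 tested had a median ob/ob effect of -0.88 (2 called lower) and Rosi effect of 1.00 (9 called higher). The 81 cytosolic ribosomal genes had -0.84 and 1.03. The 13 mRNAs of mitochondrial DNA went the other way, at 0.31 and -0.54. In eWAT preadipocyte-like cells the respiratory chain was closer to 0, at -0.23 and 0.28 (1 called lower, 3 higher). So were the cytosolic ribosome, at -0.14 and 0.16, and the synthetases, at 0.07 and -0.12. The translation factors, at -0.13 and 0.07, were not closer to 0 than in iWAT. Across the 10 eWAT and 6 iWAT classes the ob/ob median of members, of cytosolic ribosomal genes and of respiratory chain genes was below 0 in each, and that of the mitochondrial mRNAs above 0 in each.

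**Figure D4:**
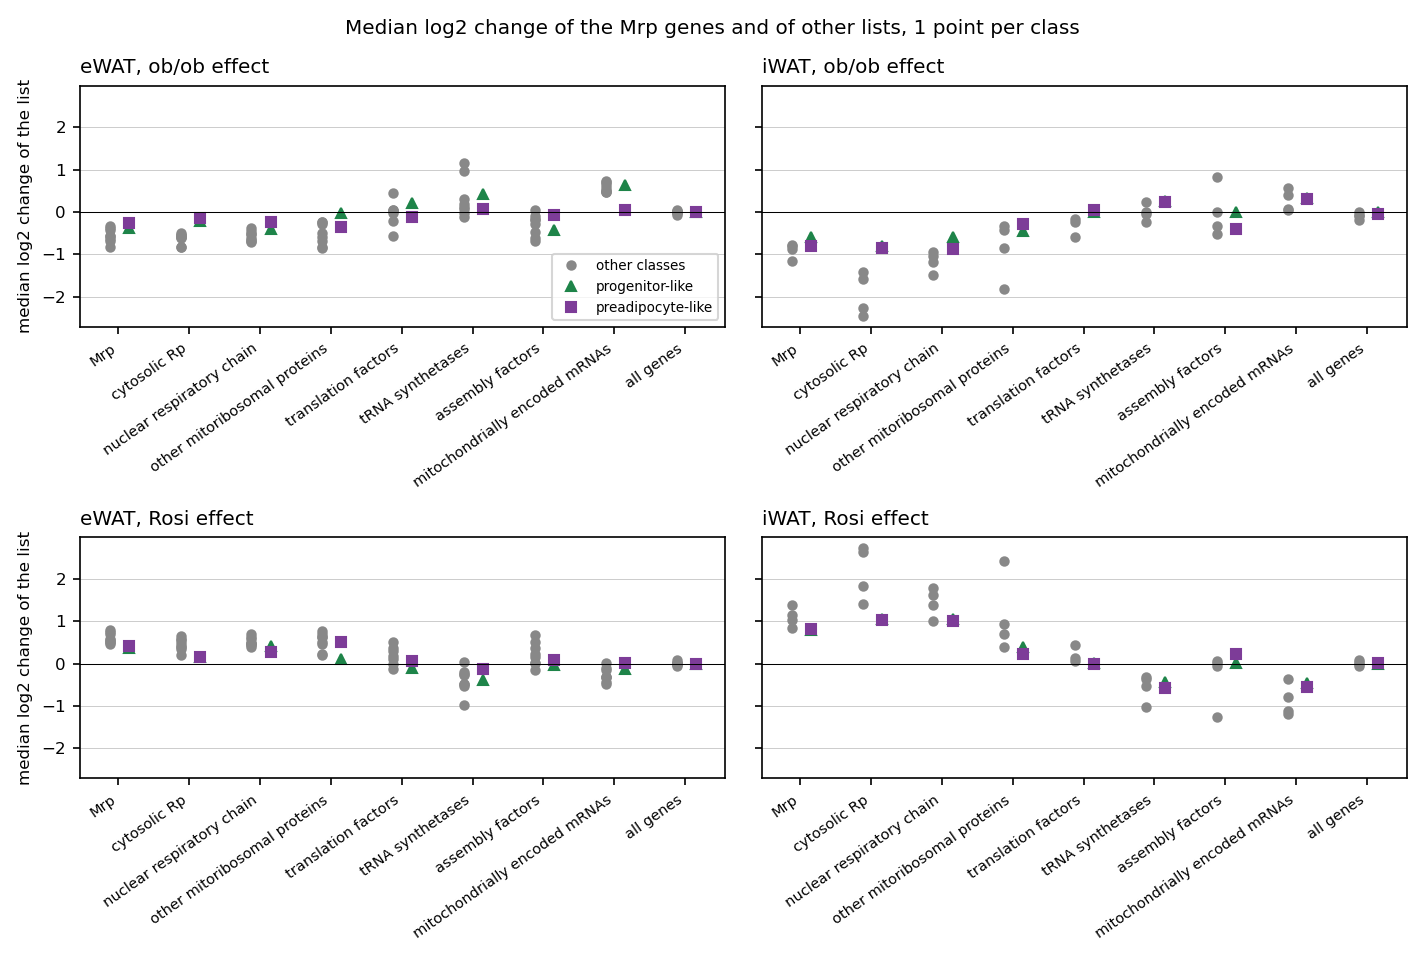
Median log2 change (vertical axis) of each gene list (horizontal axis) in each cell class (points), ob/ob effect and Rosi effect, eWAT and iWAT. Triangles are progenitor-like and squares preadipocyte-like cells. Points of the mitochondrial ribosomal, cytosolic ribosomal and respiratory chain genes lie below 0 for the ob/ob effect and above 0 for the Rosi effect. Translation factors lie on both sides of 0 (ob/ob effect -0.56 to 0.46 in eWAT and -0.59 to 0.05 in iWAT). The tRNA synthetases lie mostly below 0 for the Rosi effect (-0.97 to 0.03 in eWAT and -1.04 to -0.32 in iWAT).

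The members were also set against the cytosolic ribosome. Member UMIs per UMI of cytosolic ribosomal genes had a median ob/ob-Veh to WT-Veh ratio of 1.01 over the eWAT classes, and after Rosi 1.15, higher without overlap in 8 of 10 classes and lower without overlap in 1. In iWAT the cytosolic ribosomal genes changed by more than the members, so that the ratio was 1.44 in ob/ob-Veh (higher without overlap in 4 of 6 classes) and 0.69 after Rosi (lower in 6 of 6). The share of all UMIs taken by cytosolic ribosomal genes was lower in ob/ob-Veh without overlap in 9 of 10 eWAT classes (median ratio 0.743) and 6 of 6 iWAT classes (0.457). In iWAT progenitor-like cells it was 12.68% and 20.35% under WT-Veh, 10.09% and 10.89% under ob/ob-Veh and 17.01% and 21.97% under ob/ob-Rosi.

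Signs of RNA content and cell state moved with the members. Mitochondrial UMIs took a larger share in ob/ob-Veh without overlap in 9 of 10 eWAT classes (median ratio 1.69) and 3 of 6 iWAT classes (1.41), and a smaller one after Rosi in 4 of 10 (0.848) and 5 of 6 (0.504). Dissociation response genes were higher in ob/ob-Veh without overlap in 9 of 10 eWAT classes (1.79), and lower after Rosi in 10 of 10 (0.534). In iWAT they went both ways: in ob/ob-Veh they were higher without overlap in 3 of 6 classes and lower in 1 (median ratio 1.24, range 0.883 to 2.14), and after Rosi lower in 3 of 6, with a higher mean in 2 (median ratio 0.762, range 0.498 to 1.16). The median UMI number per cell of a class was 1.41 times as high in ob/ob-Veh in eWAT (median over classes) and 0.590 times in iWAT. Member UMIs per cell had a higher ob/ob-Veh mean in 6 of 10 eWAT classes (median ratio 1.12), unlike their CPM, and a lower one in 6 of 6 iWAT classes (0.416). After Rosi they had a lower mean in 4 of 10 eWAT classes and were higher without overlap in none (median ratio 1.03, range 0.646 to 1.72), while in iWAT they were higher without overlap in 6 of 6 (2.91). With cytosolic ribosomal and mitochondrial UMIs left out of the total, the summed member CPM was still lower in ob/ob-Veh without overlap in 10 of 10 and 6 of 6 classes (median ratios 0.727 and 0.606) and higher after Rosi in 10 of 10 and 6 of 6 (1.35 and 1.86). The part of cell size, dissociation and RNA quality in the member changes was not tested.

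Transcript length moved with the change over all genes, short transcripts being lower in ob/ob-Veh. Across the genes tested in iWAT preadipocyte-like cells, genes in the shortest of 10 bins of length (183 to 1187 bases) had a median ob/ob effect of -0.62, and genes in the longest of 0.24. The members, at a median of 1339 bases against 2982 for the genes tested, are mostly short: 31 lay in the shortest bin, with a median of -0.87. In the 9 longer bins, which held 1 to 15 members each, the member median ran from -1.12 to -0.26 and the median of all genes from -0.41 to 0.24. In eWAT preadipocyte-like cells the shortest bin had -0.21 for all genes and -0.28 for its 30 members, and in its longer bins the member median ran from -0.57 to 0.07. Within the members, the 39 shorter ones had a median ob/ob effect of -0.88 and the 38 longer ones -0.62 in iWAT preadipocyte-like cells, and -0.30 and -0.22 in eWAT. Whether the length of the mRNA or something that goes with it set these changes was not tested.

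**Figure D5:**
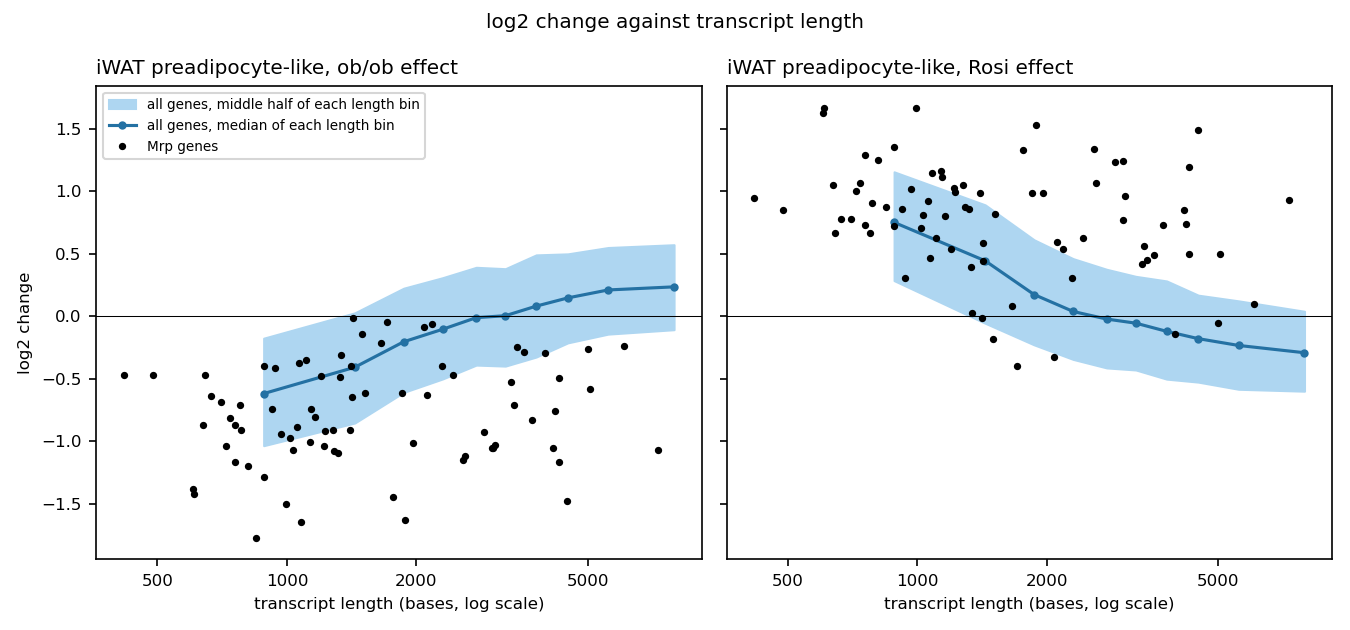
log2 change (vertical axis) of the members (points) against transcript length in bases (horizontal log axis) in iWAT preadipocyte-like cells, ob/ob effect and Rosi effect. The blue line is the median of all genes tested in 10 bins of length and the band runs from the lower to the upper quartile; most members lie below the line for the ob/ob effect.

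Between depots, few members were called. The labels do not say whether both depots came from the same mice, and the fit took all 12 libraries as separate. With equal weight to the 3 groups, 4 of 77 members were called in preadipocyte-like cells, all lower in iWAT, a share close to that of all genes (5.12% lower and 9.78% in either direction). The median was -0.32, and 70 members lay lower. Mrpl18 was at 40.3 ± 14.8 CPM in iWAT and 59.7 ± 14.3 in eWAT (SD, n = 6 each, log2 -0.58 ± 0.16, adjusted p = 0.0378). Mrps14 was at 69.6 ± 24.3 and 93.1 ± 9.93 (-0.48 ± 0.13, adjusted p = 0.0371), Mrps18c at 35.7 ± 10.6 and 47.5 ± 4.03 (-0.45 ± 0.13, adjusted p = 0.042), and Mrps36, the dehydrogenase component, at 30.8 ± 8.26 and 45.0 ± 4.72 (-0.55 ± 0.16, adjusted p = 0.046). The count was 25 without iWAT WT-Veh replicate 2 (1008 of 13958 genes lower), 4 without eWAT WT-Veh replicate 2 (564 of 13803), 5 without eWAT ob/ob-Rosi replicate 1 (777 of 13949), and 0 without any 1 of the others. It was also 0 with the clusters led by other markers left out (377 of 13229 genes lower). In progenitor-like cells no member was called by edgeR (all genes 5.42% lower and 11.7% in either direction) and 1 by DESeq2 (784 of 20219 genes lower), with a median of -0.11, which was 0.06 with every cluster led by any marker of another class left out, and 6 were called without iWAT WT-Veh replicate 2 (646 of 13568). Over all 12 libraries 4 of these 77 members had an unadjusted p under 0.05, a smaller share than the 2934 of 12793 of all genes.

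No member was called for a difference of its ob/ob or Rosi effect between depots. In preadipocyte-like cells the ob/ob effect was more negative in iWAT for 73 of 77 members, with a median difference of -0.55. None was called by edgeR (all genes 0.507%) or DESeq2. An unadjusted p under 0.05 was held by 7 of the 77 members and by 1338 of 13212 genes. The median difference rested on the iWAT WT-Veh libraries: it was -0.06, with 47 of 78 members more negative, without replicate 2, and -0.81 without replicate 1. The Rosi effect was larger in iWAT by a median of 0.42 (0.18 to 0.68 with 1 library left out), with none called (all genes 0.386%). An unadjusted p under 0.05 was held by 8 of the 77 members and by 1353 of 13212 genes. In progenitor-like cells the median differences were -0.15 and 0.42, with none called by either tool (all genes 0.242% and 0.32%). An unadjusted p under 0.05 was held by 0 and 3 members, and by 842 and 833 of 12793 genes. The first median difference turned to 0.37 without iWAT WT-Veh replicate 2 and was -0.39 without replicate 1. The second ran from 0.23 to 0.65 with 1 library left out, and was 0.20 with the clusters led by other markers left out. The iWAT counts had been filtered before deposit and the eWAT counts had not. The same cell limits were then applied to both depots here, and any other difference in their processing cannot be told apart from the depot.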

How the data were processed

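scRNA-seq libraries of the SVF (10x Genomics, 3′ tags) were analysed, 2 per group and depot. The authors demultiplexed with bcl2fastq 2.19.1.403, aligned to mm10 and counted with Cell Ranger 3.0.2, per the submitters' processing notes and methods, and deposited raw UMI counts per gene and barcode, without normalization. The methods name no removal of free RNA or doublets and state that all samples were processed as 1 batch. The deposited iWAT counts hold no barcode with 25% mitochondrial UMIs or over 22000 UMIs.

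Cells with 700 to 22000 UMIs, 200 to 6000 genes and under 25% mitochondrial UMIs were kept, the limits of the methods. Per depot, 2000 variable genes without member, cytosolic ribosomal or mitochondrial genes, 25 components, 20 neighbours and Leiden resolution 1 gave clusters (scanpy 1.11.5, leidenalg 0.10.2, Python 3.11.15). They were named from marker lists, and adipose progenitor and preadipocyte cells were clustered again (15 components, resolution 0.6). The rule for names was changed once clusters, but no group comparison, were at hand, so class shares may differ from the study's. Doublets were kept, and Scrublet calls were left out as an alternative. Scrublet's automatic threshold was replaced by the highest scores in eWAT WT-Veh 2 and iWAT WT-Veh 1.

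UMIs were summed per library and class (at least 20 cells) and fitted over all genes with edgeR 4.0.16 (R 4.3.3, TMM, filterByExpr, quasi-likelihood test, group means, 3 residual degrees of freedom), with Benjamini-Hochberg adjustment. Calls needed an adjusted p up to 0.05 and a change of 1.1-fold or more. Depots were compared in 1 fit over 12 libraries, with no pairing of eWAT and iWAT libraries by mouse, which the labels do not give. The labels do not say that a replicate number marks a shared litter or day. In eWAT, the deviations of same-numbered libraries correlated at 0.11 to 0.36 between every pair of groups (progenitor-like and preadipocyte-like cells), so eWAT counts that change with the number as a block are given beside the results. The fits were tested on simulated data. Replicates are labelled biological. All groups of a fit share 1 estimate of the spread between libraries of a group, and the p-values rest on it. CPM errors are SDs over the libraries of all groups that hold the class. They thus include the differences between genotypes and treatments. The alternatives were DESeq2 1.42.0, no TMM, no low-count filter, a replicate block, doublets removed, resolutions 0.5 and 2, totals without ribosomal and mitochondrial genes, each library left out and, chosen after seeing the data, clusters led by at least 2, or by any, markers of another class left out.

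The genes named are the called members with the largest change, or the 2 with the smallest p where there was no call, in the 4 progenitor-like and preadipocyte-like sets, the 6 most and 4 least abundant members, the 6 with the largest range over classes of a depot, and Mrps36, Mrps30 and Mrps18a. The members called in other classes, Mrpl22, Mrps34, Mrpl10, Mrps2 and those whose depots went opposite ways were chosen after their values were seen. The members, gene lists and tests were chosen with earlier results of these data known. Transcript lengths are from GENCODE vM21 (the coding transcript with the longest coding sequence), and promoters from RefSeq.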

Additional observations from a re-analysis of the deposited data

Results flagged for a closer look

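The groups did not overlap in either depot in 384 sets of a member, a class and an effect, with no limit on the size of the change. Of these, 14 (3.65%) went in opposite directions in eWAT and iWAT by at least 1.1-fold in each depot, with the fitted sign that of the group means, against 9.75% of such sets over all genes. In each, both libraries of a group lay on 1 side in eWAT and on the other in iWAT.

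In preadipocyte-like cells there were 5, and for these the difference between depots was tested. Mrpl1, of the large subunit, had an ob/ob effect of 0.21 (log2) in eWAT and -0.29 in iWAT (difference -0.50, adjusted p = 0.743 by edgeR) and a Rosi effect of -0.18 and 0.49 (difference 0.70, adjusted p = 0.569). Mrpl50, of the large subunit, had an ob/ob effect of 0.20 and -0.63 (difference -0.85, adjusted p = 0.503). Rosi effects were -0.19 and 0.45 for Mrpl51 (difference 0.67, adjusted p = 0.646) and -0.24 and 0.87 for Mrps6 (difference 1.15, adjusted p = 0.473). None passed, and Mrps6 shares exons with another gene.

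In the other classes the difference was not tested. In NKT-like cells the ob/ob effect was 0.50 in eWAT and -1.66 in iWAT for Mrpl37, -0.85 and 0.53 for Mrpl47, and -0.85 and 0.48 for Mrps27, and the Rosi effect of Mrpl44 was 0.49 and -0.69. These rest on 1 to 66 UMIs per library. In EC-like cells the ob/ob effect was -0.65 and 0.16 for Mrpl9 and -0.68 and 0.70 for Mrps31, and the Rosi effect 0.80 and -0.18 for Mrps27 and 0.64 and -0.38 for Mrps31. In BC-like cells the ob/ob effect of Mrps21 was 0.43 and -1.46, with 0 UMIs in 1 iWAT library.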

How the results depend on the processing

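Class medians of the ob/ob and Rosi effects kept their sign under every alternative but 1: in iWAT progenitor-like cells the ob/ob median, -0.59, was 0.034 without WT-Veh replicate 2 (range -0.76 to 0.034 over libraries left out). Other medians turned more often with a library left out: those of ob/ob-Rosi against WT-Veh in most classes, and the depot difference of the ob/ob effect in progenitor-like cells (-0.39 to 0.37). Of the settings other than leaving out a library, 313 of 313 medians within a depot moved by at most the median SE of a single member's change. This limit is wide for a median over many members, so it is a weak check of stability. In iWAT BC-like cells the ob/ob and Rosi medians were -7.30 and 7.69 without ob/ob-Veh replicate 2, where 20 cells were left.

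Counts of members called depended on the setting far more, 61 of 219 values moving by over 1.5 times, and the cause was not tested. The counts of all genes called moved as well, and their shares stand in parentheses. Shares for DESeq2 and for no low-count filter are over every gene with a UMI in the class. Their base is larger than that of the other shares and holds rarer genes, so they are not like for like. Order below is ob/ob effect, then Rosi effect. DESeq2 called 9 and 12 in iWAT preadipocyte-like cells (1.85% and 2.29% of all genes), against 0 and 1 in edgeR, 30 and 53 in other iWAT classes (2.05% and 2.74%), against 6 and 24, 25 rises in other eWAT classes (1.08%), against 10, 2 rises in eWAT preadipocyte-like cells (3.61%), against 0, and 8 in iWAT progenitor-like cells (2.65%), against 1. For iWAT against eWAT it called 7 in preadipocyte-like cells (806 of 20857 genes lower), against 4, and 1 in progenitor-like cells (784 of 20219), against 0. With no filter on low counts the numbers were 42 and 46 in other eWAT classes (2.14% and 1.91%), against 11 and 10, 60 and 84 in other iWAT classes (3.63% and 3.99%), 5 and 24 in iWAT progenitor-like (2.84% and 4.87%), 22 and 27 in iWAT preadipocyte-like (3.88% and 5.12%), 3 rises in eWAT preadipocyte-like cells (5.47%), 9 between depots in preadipocyte-like cells (1090 of 20857 genes lower) and 1 for their depot difference of the ob/ob effect (169 of 20857 genes lower). Library totals without TMM gave 2 and 1 in other eWAT classes (0.933% and 0.804%), 2 falls in other iWAT classes (0.437%), 0 rises in iWAT progenitor-like cells (1.14%), and 8 and 3 between depots in preadipocyte-like (722 of 13212 genes lower) and progenitor-like cells (874 of 12793). Doublet removal gave 6 and 6 in other eWAT classes (0.846% and 0.781%) and 4 rises in iWAT progenitor-like cells (1.82%). Resolution 0.5 gave 60 and 88 in other iWAT classes (4.38% and 5.88%), 2 rises in iWAT progenitor-like cells (1.65%) and 1 between depots in progenitor-like cells (671 of 12641 genes lower). Resolution 2 gave 18 and 50 in other iWAT classes (1.05% and 2.47%), 1 and 1 in eWAT preadipocyte-like (4.91% and 4.9%), 3 rises in iWAT progenitor-like (2.04%) and 0 in iWAT preadipocyte-like cells (0.527%), and between depots 0 in preadipocyte-like (584 of 13008 genes lower) and 2 in progenitor-like cells (1018 of 12515). Totals without ribosomal and mitochondrial genes gave 3 rises in iWAT progenitor-like cells (1.67%) and 1 between depots in progenitor-like cells (704 of 12793 genes lower). With clusters led by at least 2, or by any, markers of another class left out, both chosen after seeing the data, the single rises in iWAT progenitor-like cells (0.783% and 0.639%) and preadipocyte-like cells (0.258% and 0.223%) and the 4 depot calls (377 of 13229 and 373 of 13195 genes lower) became 0. Under the stricter of these the ob/ob effect in iWAT progenitor-like cells was not fitted, since WT-Veh replicate 1 kept fewer than 20 cells. As a ratio, the summed level with totals without ribosomal and mitochondrial genes was 0.721 in eWAT DC-like and 0.613 in eWAT NKT-like cells.

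The labels tell no more of the replicate numbers in iWAT than in eWAT, and what libraries of the same number share is not known. In iWAT, deviations of same-numbered libraries correlated at 0.61 between WT-Veh and ob/ob-Rosi, above every eWAT pair. They correlated at 0.06 to 0.10 for the other pairs of groups. The block ended no call in either depot. With the replicate block the counts (share of all genes) were 3 and 2 in eWAT progenitor-like (3.44% and 2.39%), 4 rises in eWAT preadipocyte-like (7.73%), 70 and 74 in other eWAT (4.73% and 4.18%), 18 rises in iWAT progenitor-like (5.52%), 16 and 26 in iWAT preadipocyte-like (4.23% and 6.83%), 37 and 70 in other iWAT classes (3.99% and 6.13%), and between depots 11 in preadipocyte-like (1143 of 13212 genes lower) and 1 in progenitor-like cells (833 of 12793).

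Leaving out each library gave 0 to 22 rises in eWAT preadipocyte-like cells, 0 to 4 falls and 0 to 105 rises in other eWAT classes, 0 to 16 falls and 0 to 1 rises in iWAT progenitor-like, 0 to 32 falls and 0 rises in iWAT preadipocyte-like, 0 to 95 falls and 0 to 16 rises in other iWAT classes, 0 to 3 calls of ob/ob-Rosi against WT-Veh in iWAT, and between depots 0 to 25 in preadipocyte-like and 0 to 6 in progenitor-like cells. A group left with 1 library was assumed to vary like the others. Low UMI numbers limit the rarest members and classes.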
